A study of Mus musculus with 8 samples.

Results

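The 10 genes described here encode the matrix-binding and TGF-beta-activating integrin subunits Itga2, Itga3, Itga4, Itga5, Itga6, Itgav, Itgb1, Itgb4, Itgb6 and Itgb8, taken by symbol from 25247 genes measured by bulk RNA sequencing. All 10 were found in the table and all passed the filter on low counts in every fit. The cells were Langerhans cells, the antigen-presenting dendritic cells that live in the epidermis, from ear skin of C57BL/6 mice. One group was wild type (WT) and the other carried the genotype EZH2 -/- (KO), which lacks the histone H3K27 methyltransferase of Polycomb repressive complex 2. The labels do not give the Cre or promoter behind the deletion, the age or the sex, and name no treatment. They give a sort of DAPI- CD45+ Ly6G- CD103- MHCII+ CD24+ EpCAM+ cells after dispase and collagenase digestion.

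The genotype of 4 of the 8 libraries is disputed in the labels. RMN030 and RMN031 were WT, and RMN038 and RMN039 were KO, by both the code in the sample title and the code in the description. RMN032 and RMN033 were KO by title code and WT by description code, and RMN036 and RMN037 were WT by title code and KO by description code. Each member was therefore compared in the 4 undisputed libraries, by title code and by description code. By the numbers of their codes, the libraries were split into an earlier run (RMN030 to RMN033) and a later run (RMN036 to RMN039). These names rest on the numbering alone, not on a stated date or batch. The description-code comparison is the later run against the earlier run, and the undisputed comparison also has WT only in the earlier and KO only in the later run, so in both the genotype and the run cannot be told apart. By title code each run holds 2 WT and 2 KO libraries. Nothing in the labels says that each library came from its own animal, and p-values therefore rest on a spread among libraries that may be technical. Values are given in code order, RMN030 to RMN033 for the earlier run and RMN036 to RMN039 for the later run.

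Integrins are receptors made of an alpha and a beta subunit that hold cells to the extracellular matrix or to each other. In basal keratinocytes, integrin alpha6 beta4 anchors hemidesmosomes to laminin-332 and alpha3 beta1 binds the same laminin at focal contacts, while alpha2 beta1 is a collagen receptor. Alpha5 beta1 is the classical fibronectin receptor, and alpha4 beta1 binds VCAM-1 and fibronectin on leukocytes. Alphav beta6 on keratinocytes and alphav beta8 bind the latent form of TGF-beta and release the active cytokine, which Langerhans cells need to stay in the epidermis.

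Library totals ran from 11051402 to 18966195 counts. The labelled cell type was matched by its markers in every library: Cd207, the gene of langerin, stood at 9706 to 11962.5 CPM (counts scaled to the same total in every library), and 15 Langerhans cell markers summed to 93561 to 120847 CPM. Transcripts of basal keratinocytes were present in every library as well, with 12 markers summing to 14731 to 19202 CPM and Krt14, the basal keratin, at 6463 to 8876 CPM. The 17 T cell markers summed to 362 CPM in RMN030 and 333 in RMN031, against 45.0 to 63.0 in the other libraries. Fibroblast markers summed to 41.1 to 66.5 CPM in the earlier run and 122 to 206 in the later run, and mast cell markers to 31.8 to 44.4 and 52.6 to 71.8. Kit made up much of the mast cell sums, at 26.2 to 37.3 CPM in the earlier run and 18.2 to 30.9 in the later.

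By level, set per kilobase of annotated exon so that genes can be compared, Itgb1 was highest among the members, at 81.4 ± 11.8 CPM per kilobase (SD, n = 8 libraries). Itgb4 followed at 44.7 ± 4.2 and Itga5 at 42.6 ± 5.3, then Itga3 at 19.6 ± 2.5 and Itga6 at 12.6 ± 1.8. Itgb6 stood at 7.02 ± 1.23, Itgav at 6.74 ± 1.06, Itga2 at 2.02 ± 0.52, Itga4 at 1.79 ± 0.40 and Itgb8 at 0.23 ± 0.19 CPM per kilobase. Neighbours in this order overlapped in range for Itgb4 and Itga5, Itga3 and Itga6, Itgb6 and Itgav, and Itga2 and Itga4. Itgb4 exceeded Itga5 in only 2 of 8 libraries although its mean was higher, and Itga3 exceeded Itga6 in all 8. With the length of the longest transcript in place of the union of exons, Itga6 stood above Itga3 (means of 26.3 and 23.0) and Itga4 above Itga2 (2.57 and 2.03), so the order within these pairs depends on the length used. The other 5 neighbouring pairs did not overlap.

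**Figure D1:**
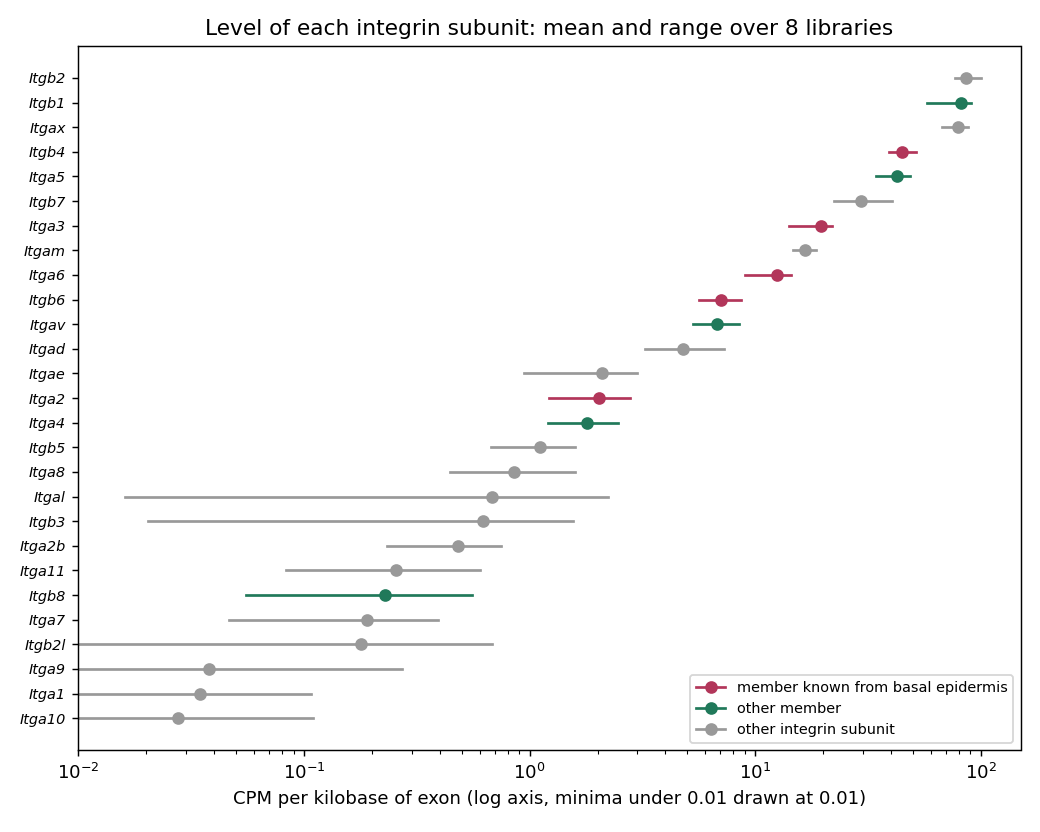
Level of 27 integrin subunit genes in CPM per kilobase of exon on a log axis, with a dot at the mean and a line over the range of the 8 libraries. Among the members Itgb1 is highest at 81.4 and Itgb8 lowest at 0.23, and the 5 members known from basal epidermis lie between them.

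Level did not set the members known from basal epidermis apart from the others. The 5 subunits known from basal epidermis (Itga2, Itga3, Itga6, Itgb4 and Itgb6) had means from 2.02 to 44.7 CPM per kilobase, and the other 5 from 0.23 to 81.4. These other 5 are not a Langerhans cell set, as Itgb1 and Itgav also pair with subunits of keratinocytes. Without Itgb1 and Itgav, the rest (Itga4, Itga5 and Itgb8) ran from 0.23 to 42.6. Itgb1, shared by keratinocytes and leukocytes as the partner of many alpha subunits, stood beside the leukocyte subunits Itgb2 (86.1 ± 7.5 CPM per kilobase) and Itgax (79.4 ± 6.2), which encodes CD11c. Itgb1 made up 32.5% of the summed beta subunit level and Itgb2 34.3%. In bulk samples the transcripts of all cells present are counted together, and fewer cells of a type cannot be told apart from less RNA per cell.

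Among the laminin-binding members, Itgb4 was the steadiest of the 10, with a coefficient of variation of 9.47% over the 8 libraries. Itgb4 read 287, 275, 363 and 339 CPM in the earlier run and 321, 310, 287 and 326 in the later run. Its partner Itga6 read 81.4, 108, 125 and 113 CPM, then 114, 106, 128 and 130. Itga6 was lowest in RMN030 and highest in the 2 undisputed KO libraries, and Itgb4 was highest in RMN032 and RMN033, which the labels dispute. Per kilobase, Itga6 was 0.22 to 0.35 times Itgb4, and with longest transcript lengths 0.41 to 0.64 times, so the beta subunit was the higher partner in every library by either length.

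Itga3, the alpha chain of the other laminin receptor, read 112, 80.6, 120 and 125 CPM in the earlier run and 125, 114, 108 and 109 in the later run, with RMN031 below all others. Itga2, the alpha chain of the collagen receptor, read 15.7, 10.8, 12.9 and 15.0 CPM, then 18.6, 19.8, 8.67 and 14.0. The later run held both its highest and its lowest libraries, RMN037 and RMN038.

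The summed level of the 5 basal epidermal members was 515 to 677 CPM, equal to 3.15% to 3.94% of the summed basal keratinocyte markers. Both sums were lowest in RMN031 (515 and 14731 CPM). RMN032 and RMN033 gave the highest pair of both, at 677 and 641 CPM for the members and 18833 and 19202 CPM for the markers. For the members RMN036 was close behind RMN033, at 639 CPM. The 7 hemidesmosome partners and laminin-332 chains, among them Col17a1 and Dst, were also highest in RMN032 and RMN033, at 4484 and 4607 CPM against 3268 to 3941 elsewhere. By title code these 2 libraries are KO, and by description code WT. The part of keratinocyte content in the level of these members was not tested.

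**Figure D2:**
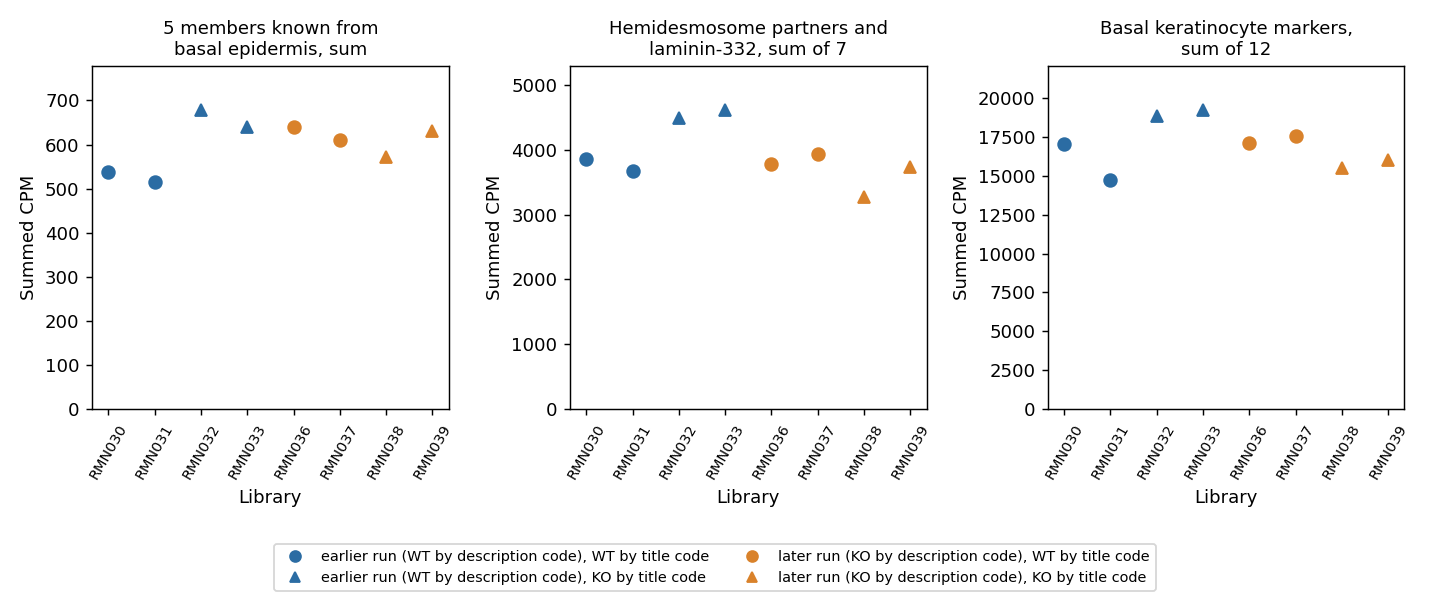
Summed CPM in each library for the 5 members known from basal epidermis, for 7 hemidesmosome partners and laminin-332 chains, and for 12 basal keratinocyte markers, each on an axis from 0. Colour gives the run and symbol the title-code genotype. RMN032 and RMN033 are the highest pair in all 3 panels, in the first only narrowly, as RMN036 is close to RMN033.

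Itga5 and Itgb1, which pair as the fibronectin receptor, both stood higher in every library of the later run than in any of the earlier run. Of all genes tested 3.74% did so, and 8.82% did not overlap between the runs in either direction. Itga5 read 207, 204, 169 and 178 CPM in the earlier run and 240.01, 234, 215 and 234 in the later run. Itgb1 read 236, 331.7, 349 and 284 CPM in the earlier run and 361, 371, 363 and 364 in the later run. The later run was tight for Itgb1, with an SD of 4.4 CPM around 365 against 50.9 around 300.2 in the earlier run (n = 4 each), and RMN030 gave the lowest value.

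The 250 bases before the RefSeq start of these partners are shown because both genes separated the runs, and because Polycomb repressive complex 2 is known for binding promoters rich in CpG. Capitals mark each CpG (the letters CG, which read the same on both strands). The Itga5 sequence is from GRCm38.p6, chr15:103366792-103367041, minus strand, and the Itgb1 sequence from chr8:128685404-128685653, plus strand.
Itga5: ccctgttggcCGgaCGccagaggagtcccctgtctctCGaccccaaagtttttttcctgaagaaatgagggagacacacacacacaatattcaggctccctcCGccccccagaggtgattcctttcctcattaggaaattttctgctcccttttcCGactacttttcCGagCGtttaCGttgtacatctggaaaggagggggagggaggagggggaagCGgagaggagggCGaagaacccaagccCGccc
Itgb1: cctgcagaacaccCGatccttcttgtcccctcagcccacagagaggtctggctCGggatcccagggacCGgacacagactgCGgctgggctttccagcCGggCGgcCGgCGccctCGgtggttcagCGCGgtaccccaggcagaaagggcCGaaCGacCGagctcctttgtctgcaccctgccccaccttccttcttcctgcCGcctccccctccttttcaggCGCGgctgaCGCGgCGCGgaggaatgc
Itga5 held 11 CpG and Itgb1 21. Among members that did not separate the runs, Itga2 held 12, Itgav 18 and Itga4 6. The listed starts of Itga3 held 5 and 22, and those of Itgb6 3 and 11. The Itga3 window with 22 included 34 bases of annotated exons of the gene, and the Itgb6 windows 61 and 40. The count of Itga5 was thus not particular to it, while among these members only a start of Itga3 held more than Itgb1. Over all 32851 RefSeq mouse windows of this length the median was 6, 92.1% held at least 1, and Itgb1 had more than 83.7% of them. The ratio of observed to expected CpG was 0.57 for Itga5 and 0.74 for Itgb1, against a median of 0.37. A start was listed for 8 of the 10 members, not for Itga6 and Itgb4. The window before the listed Itgb8 start lies wholly inside the annotated first exon and is not printed.

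By description code, Itga5 averaged 189.5 ± 19.4 CPM in the WT libraries and 231 ± 10.99 in the KO libraries (SD, n = 4 each, exact permutation p = 0.0286, two-sided), the smallest p that 4 against 4 libraries can give. Itgb1 was 300.2 ± 50.9 and 365 ± 4.4 CPM with the same p. Across all genes neither passed: the log2 fold change was 0.32 (SE 0.10) for Itga5 and 0.33 (SE 0.10) for Itgb1, with edgeR adjusted p of 0.134 and 0.149. With RMN030 and RMN031, the libraries with the most T cell marker transcripts, left out, Itga5 passed at a log2 fold change of 0.47 (adjusted p = 0.0283) and Itgb1 did not (0.26, adjusted p = 0.297). By title code both overlapped, and Itga5 had the opposite sign, at -0.16 (SE 0.13, adjusted p = 0.998). Within the earlier run alone, both title-code KO libraries were below both WT libraries in Itga5 (exact permutation p = 0.333). With so few libraries, 37.4% of all genes did not overlap in that run, in either direction. In the later run the title-code groups overlapped in Itga5.

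Itga4, the alpha chain of the VCAM-1 receptor, had the lowest level per kilobase of exon union after Itgb8 and varied by 2.04 times between its lowest and highest library. It read 16.9, 28.5, 26.2 and 29.0 CPM in the earlier run and 21.8, 24.2, 34.4 and 19.7 in the later run. The groups overlapped in each of the 3 readings, and of the libraries with the most T cell marker transcripts, RMN030 was the lowest of all 8 and RMN031 lay close to RMN033. Exons of Itga4 share 1124 bases with Cerkl on the other strand, and the strand setting of the counts is not given in the sources used here, so reads from the pair cannot be told apart.

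Of the TGF-beta activators, Itgb8 showed the widest spread and the 1 call among the members. Itgb8 lay at 0.61, 0.92, 0.86 and 1.48 CPM in the earlier run, from 8, 17, 14 and 28 counts. In the later run it lay at 4.03, 4.68, 1.56 and 6.15 CPM, from 60, 78, 22 and 68 counts. Every later library was above every earlier one, as for 3.74% of all genes tested. The gap was narrow at RMN038: its exact 95% Poisson interval of 0.98 to 2.37 CPM included the 1.48 of RMN033. Such intervals cover counting error only, and as 60.1% of counts from 1 to 20 were even, read mates may have been counted separately, which would make them too narrow.

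By description code Itgb8 averaged 0.965 ± 0.365 CPM in the WT libraries and 4.11 ± 1.91 in the KO libraries (SD, n = 4 each, exact permutation p = 0.0286). It rose 4.32-fold, a log2 fold change of 2.11 (SE 0.49, edgeR adjusted p = 0.0441). The call held when RMN038 was left out (adjusted p = 0.0199) and was lost when any of the other 7 libraries was (log2 fold change from 1.85 to 2.39, adjusted p from 0.0688 to 0.133). It was lost too with RMN030 and RMN031 both left out (1.86, adjusted p = 0.264), with the replicate number as a block (2.04, adjusted p = 0.0816) and with limma voom (1.87, adjusted p = 0.102). In the undisputed libraries its log2 change was 2.36 (SE 0.81, adjusted p = 0.291), and it was 1.05 without RMN039 (adjusted p = 0.841) and 3.03 without RMN038 (adjusted p = 0.00417). By title code Itgb8 was 2.56 ± 2.09 CPM in WT and 2.51 ± 2.45 in KO, which the fit put at -0.04 on the log2 scale (SE 0.75, adjusted p = 0.998).

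Markers of some other cells moved with the same split. By description code 4 of 8 tested fibroblast markers, 5 of 6 mast cell markers and 5 of 5 erythroid markers passed as higher in KO. So did 2 of 10 suprabasal keratinocyte markers and 3 of 12 macrophage markers, with 1 macrophage marker lower. Of all genes 2.02% passed, and 1.43% passed as higher in KO. From the lists of T cell (8 tested), Langerhans cell (15), dermal dendritic cell (6), melanocyte (2) and endothelial markers (1), 0 passed. Of 12 basal keratinocyte markers 2 passed, both lower in KO: Krt15, a basal keratin, fell by 0.45 and Trp63, the p63 transcription factor of basal cells, by 0.74 on the log2 scale. Of 18 tested markers of activated migratory dendritic cells 3 passed as higher, the actin bundler Fscn1 (1.61), Samsn1 (1.54) and Traf1 (0.63). The list as a whole did not rise, as 10 of the 18 were above 0. Its 20 markers summed to 7105 to 7742 CPM in the earlier run and 5919 to 6732 in the later run. Dcn, the proteoglycan decorin of fibroblasts, rose by 2.20 on the log2 scale. Within the later run the fibroblast sum was highest in RMN038 (206 CPM), where Itgb8 was lowest, and the mast cell sum was 52.6 CPM in RMN038 and 57.9 to 71.8 in the other 3 libraries. Kit was a large part of the mast cell sums, at 30.9 CPM in RMN036 and 21.2 in RMN038. Of the other mast cell markers, Mcpt4, Cma1, Tpsab1 and Ms4a2 were higher in RMN038 than in RMN036, and Cpa3 and Tpsb2 were lower. The sort in the labels takes CD45+ MHCII+ EpCAM+ cells, a gate that should leave out fibroblasts, mast cells and erythroid cells. The part of these cells in the Itgb8 level was not tested.

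**Figure D3:**
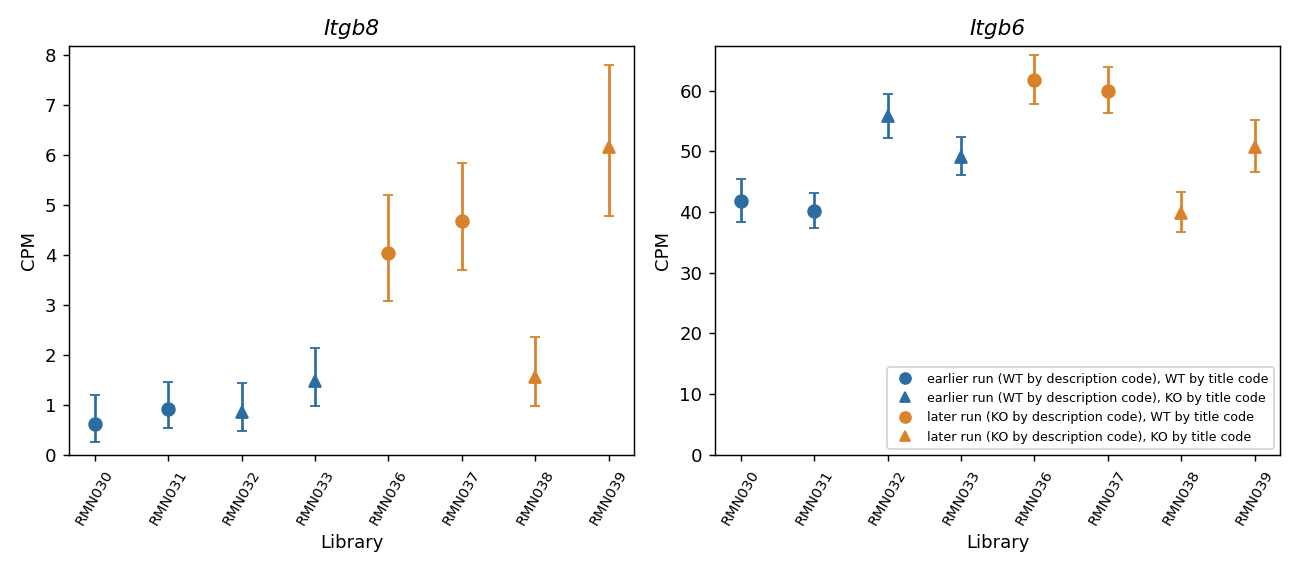
CPM of Itgb8 and Itgb6 in each library with exact 95% Poisson intervals of the count, colour for run and symbol for title-code genotype. Itgb8 lies at 1.48 or below in the earlier run and 1.56 or above in the later run, and Itgb6 is higher in title-code KO in the earlier run and lower in the later run.

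Itgb6, the epithelial partner of alphav, read 41.8, 40.2, 55.8 and 49.1 CPM in the earlier run and 61.8, 60.0, 39.9 and 50.8 in the later run. By title code the direction differed by run without overlap in either: 41.0 ± 1.2 CPM in WT and 52.5 ± 4.7 in KO in the earlier run, and 60.9 ± 1.3 and 45.3 ± 7.7 in the later run (SD, n = 2 each). With so few libraries, 37.4% of all genes did not overlap in the earlier run and 38.5% in the later. The test of the difference between runs, the genotype-by-run interaction, gave a log2 value of -0.71 for Itgb6 (SE 0.25, unadjusted p = 0.0156). It did not pass over all genes (edgeR adjusted p = 0.50). Itga3 likewise had KO higher in the earlier run (96.1 ± 22.0 against 123 ± 3.3 CPM) and lower in the later (119 ± 7.6 against 108 ± 0.63), with an interaction of -0.42 (SE 0.23, adjusted p = 0.718). A negative interaction was not particular to these 2 members. Of 12 basal keratinocyte markers 2 were above 0, with a median of -0.38, against 49.8% of all genes above 0.

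Itgav, the common alpha chain of both activators, read 60.7, 81.9, 78.5 and 67.3 CPM in the earlier run and 69.9, 72.9, 56.9 and 91.5 in the later run. The 2 undisputed KO libraries were its lowest and highest, and no reading separated the groups. Its exons share 634 bases with Gm13684 on the other strand. Per kilobase Itgb6 was 0.74 to 1.34 times Itgav, whereas Itgb8 was 0.0098 to 0.0213 times Itgav in the earlier run and 0.0267 to 0.0653 in the later run. On this per-length scale the transcript of the keratinocyte-type partner thus exceeded that of Itgb8 in every library.

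**Figure D4:**
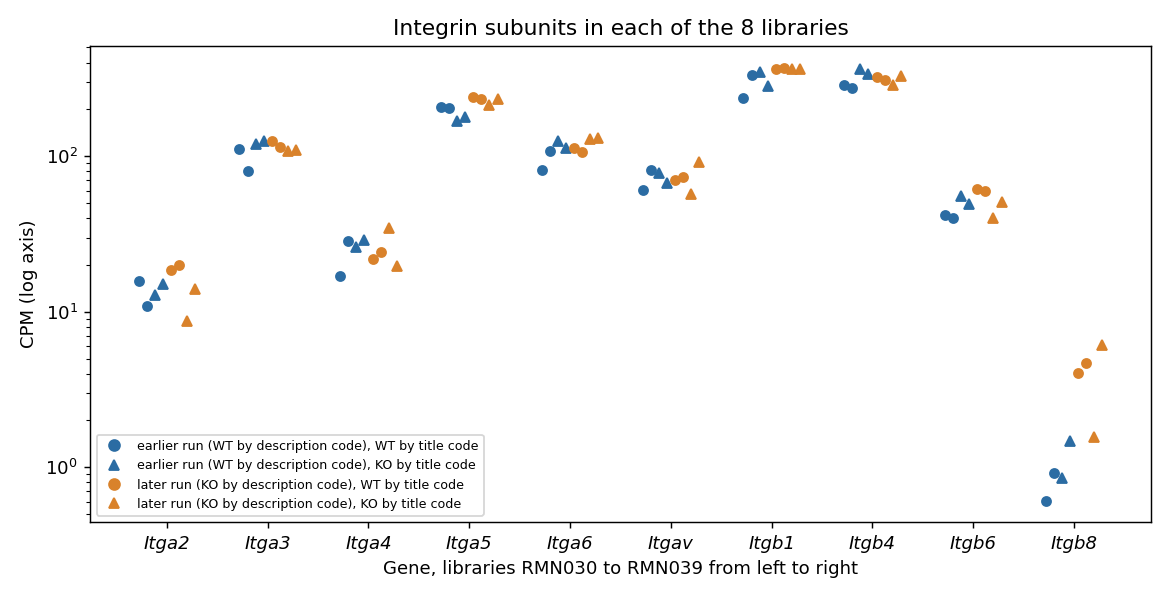
CPM of each member in the 8 libraries on a log axis, ordered RMN030 to RMN039 within a gene, with colour for run and symbol for title-code genotype. The runs are apart for Itga5, Itgb1 and Itgb8 and overlap for the other 7 members.

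Over the whole table, edgeR called 117 of 14727 genes in the undisputed libraries (0.794%), 0 of 14630 by title code (0%), 296 of 14630 by description code (2.02%) and 3 of 16146 for the interaction (0.0186%). Of the 10 members the counts were 0, 0, 1 and 0. The 1 member called, Itgb8, was among the 1.43% of genes called higher in KO by description code. By title code 672 genes had an unadjusted p under 0.05, among them 1 member, Itga6, DESeq2 called 19 genes and no member, and limma voom called 0 genes.

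CPM ranges of the groups did not overlap for 3 members by description code, all higher in KO (Itga5, Itgb1 and Itgb8), where 8.82% of genes did not overlap and 3.74% were higher in every KO library. By title code no member separated, against 2.94% of genes, with 1.41% higher in every KO library. In the undisputed libraries 5 members separated, all higher in KO (Itga5, Itga6, Itgb1, Itgb4 and Itgb8), but with 2 against 2 libraries 42.1% of all genes did, and 16.9% were higher in both KO libraries. That design cannot give an exact permutation p under 0.333.

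Fitted changes of the members leaned to higher values in KO by description code, where all 10 were above 0 with a median of 0.21 on the log2 scale, while 48.9% of all genes were above 0 and their median was -0.01. By plain CPM means 8 were higher in KO, with Itga4 at 0.995 and Itgb4 at 0.984 times the WT mean. In the undisputed libraries, which share 4 libraries with that comparison, 9 were above 0 with a median of 0.20, and Itga2 was at -0.18 (SE 0.36). By title code 6 were above 0 with a median of 0.05. The lean was not kept by leaving out RMN030 and RMN031, when 7 of 10 were above 0 by description code with a median of 0.07.

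**Figure D5:**
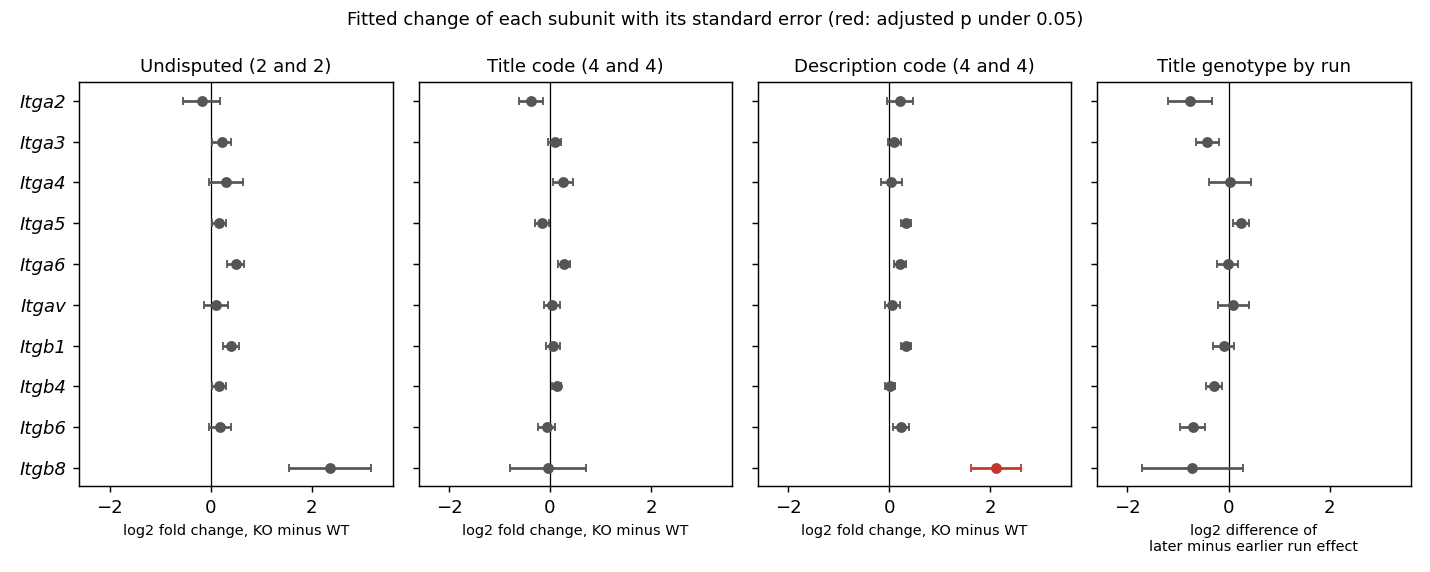
Fitted log2 change of each member with its standard error in the 3 readings, and the genotype-by-run interaction in the right panel, which is the title-code change in the later run minus that in the earlier run. The description-code value of Itgb8, 2.11, is in red as the 1 value with an adjusted p under 0.05.

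Itga6 gave the largest title-code change in proportion to its error. By title code its WT libraries averaged 102 ± 14.3 CPM and its KO libraries 124 ± 8.1 (SD, n = 4 each, exact permutation p = 0.0571), with KO above WT without overlap in each run taken alone, as for 3.32% of all genes and no other member. In a single run, with 2 against 2 libraries, 5 members did not overlap in the earlier run and 4 in the later, against 37.4% and 38.5% of all genes. The log2 fold change was 0.27 (SE 0.12, unadjusted p = 0.0391, edgeR adjusted p = 0.998). In the undisputed libraries the means were 94.9 ± 19.1 and 129 ± 1.5 CPM (SD, n = 2 each) and the fitted log2 change 0.50 (SE 0.17, adjusted p = 0.293). With RMN031 left out, Itga6 (0.68, adjusted p = 0.0152) and Itgb1 (0.64, adjusted p = 0.000682) passed there, and with RMN030 left out they lay at 0.32 (adjusted p = 0.634) and 0.19 (adjusted p = 0.75). Each fit of the undisputed libraries with 1 left out has 1 library in a group, which is assumed to vary like the other group. Itgb4 by title code was 298 ± 20.8 CPM in WT and 329 ± 31.7 in KO, with a fitted log2 change of 0.13 (SE 0.09, adjusted p = 0.998).

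Among the ligands of these receptors, 3 of 19 tested matrix genes passed by description code, where 2.02% of all genes did. Col1a1 and Col1a2, the collagen I chains of fibroblasts, were higher and Ccn1, a matricellular integrin ligand, was lower (258 to 299 against 420 to 642 CPM, log2 fold change -0.88, SE 0.12, adjusted p = 0.00173). No ligand passed in the undisputed libraries or by title code.

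Of 24 tested genes of TGF-beta activation and signalling, 3 passed by description code, all higher in KO, against the same 2.02% of all genes, and 0 passed in the other fits. Tgfbr2, the type II TGF-beta receptor, read 108 to 140 CPM in the earlier run and 145 to 175 in the later (log2 fold change 0.50, SE 0.10, adjusted p = 0.0258). Furin, a protease that cleaves the TGF-beta precursor, read 122 to 141 and 160 to 182 CPM (0.40, SE 0.09, adjusted p = 0.0365). Lrrc32 encodes GARP, which holds latent TGF-beta for alphav integrins, and read 0.31 to 0.95 and 1.81 to 5.81 CPM (2.34, SE 0.55, adjusted p = 0.0473). These 3 did not overlap between the runs, which are the same groups as in the fit that called them, and 8.82% of all genes did not overlap there. Lrrc32 was low, with 228 counts over all libraries. By title code the log2 fold changes were 0.03 for Tgfbr2, -0.08 for Furin and -0.59 for Lrrc32.

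Of 25 integrin linker genes 0 passed in any fit. Rap1b, a small GTPase that activates integrins through talin, came closest by description code (log2 fold change 0.36, SE 0.11, adjusted p = 0.153). Of the 17 other integrin subunits 13 were tested in each reading, and the 1 call was Itgal, the alpha chain of LFA-1, lower in KO in the undisputed libraries (log2 fold change -3.10, SE 0.42, adjusted p = 0.00469). Itgal read 14.3 and 14.6 CPM in RMN030 and RMN031, which also held the T cell markers, and at most 1.99 elsewhere. By description code 5 of these 13 were above 0 with a median of -0.16.

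Over the 8 libraries, the genes whose log2 CPM followed a member most closely were chosen among 9316 genes with a mean of at least 5 CPM, and the values are a description of shared libraries. Rap1b followed Itgb1 with Pearson r = 0.997, from 207 CPM in RMN030 to 344 in RMN037, and Idi1, an enzyme of isoprenoid synthesis, came next at 0.986. Pde12 followed Itgb8 at 0.982 and Tlnrd1, a talin rod domain protein, at 0.957. Rab24 followed Itga5 at 0.977, Tor1aip2 followed Itga6 at 0.979, Eef2kmt followed Itga2 at 0.972 and Psmd12 followed Itga4 at 0.971. Casp1 followed Itgb6 at 0.960, Zfp943 Itgav at 0.960, Dcaf17 Itgb4 at 0.958 and Mrps26 Itga3 at 0.955. Among the members, Itga6 and Itgb1 were most alike (r = 0.801), and Itga2 and Itga4 most opposed (r = -0.626).

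On GRCm38, the annotated genes lie as follows. Itga2 (ENSMUSG00000015533) spans chromosome 13, 114833081 to 114932100, minus strand, and Itga3 (ENSMUSG00000001507) chromosome 11, 95044474 to 95076801, minus strand. Itga4 (ENSMUSG00000027009), Itga6 (ENSMUSG00000027111) and Itgav (ENSMUSG00000027087) lie on the plus strand of chromosome 2 at 79255426 to 79333123, 71745616 to 71858416 and 83724397 to 83806916. Itgb6 (ENSMUSG00000026971) lies on its minus strand at 60598292 to 60722643. Itga5 (ENSMUSG00000000555) spans chromosome 15, 103344286 to 103366763, minus strand, and Itgb1 (ENSMUSG00000025809) chromosome 8, 128685654 to 128733200, plus strand. Itgb4 (ENSMUSG00000020758) spans chromosome 11, 115974709 to 116008412, plus strand, sharing 537 exon bases with B230344G16Rik on the other strand, and Itgb8 (ENSMUSG00000025321) chromosome 12, 119158022 to 119238802, minus strand. Counts cover whole genes, so exons, introns and isoforms were not resolved.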

How the data were processed

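The authors deposited an unnormalized count for each of 25247 Ensembl genes and 8 libraries. The submitters' processing notes name STAR 2.5.2b, featureCounts 1.5.0 and GRCm38 (mm10). The annotation release, strand setting and handling of read pairs are not given in the sources used here. Symbols matched 25080 identifiers, and coordinates and exon lengths came from GENCODE M21. Counts were scaled to the column total (CPM) and, between genes, divided by the length of the union of exons. Differential expression used edgeR 4.0.16 in R 4.3.3 (filterByExpr, TMM, robust quasi-likelihood F-test, KO minus WT) on all genes; adjusted p-values (Benjamini-Hochberg) under 0.05 were called, and the step was tested on simulated data. SE came from the F statistic. Single members were also compared by exact two-sided permutation. Alternatives changed the scaling (RLE), the filter (none, or 1 CPM), the tool (DESeq2 1.42.0, or voom with quality weights in limma 3.58.1), the libraries (leaving out each in turn, or fitting each run alone) and the design (a block for the replicate number, or the run as covariate). Fits without RMN030 and RMN031 were added after seeing the data. The members, gene lists and tests were chosen with earlier results of these data known. From each list, genes past the threshold in a fit and up to 3 with the smallest p by title or description code could be named, with defining markers. For likeness, the 3 genes with the highest Pearson r of log2(CPM + 0.5) were taken per member, without unnamed models and pseudogenes. Calls in the hemidesmosome and laminin list are not reported here.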

Additional observations from a re-analysis of the deposited data

Results flagged for a closer look

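Among the 4 KO libraries by title code, Itgb8 in RMN039 lay far from the others, at 6.15 CPM against 0.86 to 1.56. It was the 1 such value among 40 groups of 4 libraries examined (10 members, WT and KO, by title and by description code), and chance flags about 1 in 20 groups, or 2 of 40. That title-code group mixes the runs, as RMN032 and RMN033 are of the earlier run. Within the later run, RMN036 and RMN037 read 4.03 and 4.68 CPM.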

How the results depend on the processing

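Of the members, 1 was called by description code under RLE scaling, without a filter, under the 1 CPM filter and without RMN030 and RMN031 (with Itga5 called there in place of Itgb8), 2 with DESeq2 (Itgb8 and Itga5), 0 with limma voom, 0 with the replicate number as a block, and 0 to 1 with a library left out. By description code 296 genes were called in the main fit, 300 under RLE scaling, 339 without a filter and 320 under the 1 CPM filter. Without RMN030 and RMN031 they were 226. Genes called were 660 with DESeq2, 374 with limma voom, 174 with the block and 140 to 219 with a library left out. By title code they were 19 with DESeq2, 1 with no filter and 57 in the earlier run alone, in the undisputed libraries 305 with DESeq2, 440 with no filter and 263 to 629 with a library left out (members 0 to 2), and for the interaction 97, 178 and 0 to 8. Correlations of the deviations of same-numbered WT and KO libraries from their group means were 0.052 to 0.10 by title code and -0.0068 to 0.030 by description code. By title code, same-numbered libraries also share a run. Differently numbered libraries were not compared, so whether the labelled replicate numbers pair the libraries was not tested.

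Signs turned only for changes that were not called. By title code, the earlier run alone gave 0.037 for Itga2, -0.0040 for Itgav, 0.32 for Itgb6 and 0.57 for Itgb8, the later run -0.11 for Itga3 and -0.014 for Itgb4, voom -0.0021 for Itgav, and leaving out RMN030 and RMN031 -0.057 for Itga3 and -0.11 for Itgb1. Itgb8 by title code was 0.040 with the replicate block and 0.18 with the run as covariate. By description code, leaving out RMN030 and RMN031 gave -0.050 for Itga3, -0.081 for Itga4 and -0.12 for Itgb4, and voom -0.063 for Itga4. With each library left out, the undisputed values ran from -0.58 to 0.13 for Itga2, -0.027 to 0.49 for Itga3, -0.16 to 0.70 for Itga4, -0.29 to 0.41 for Itgav and -0.0067 to 0.35 for Itgb6. Title-code values ran from -0.037 to 0.17 for Itga3, -0.10 to 0.14 for Itgav, -0.056 to 0.15 for Itgb1, -0.18 to 0.040 for Itgb6 and -0.99 to 0.43 for Itgb8. Description-code values ran from -0.024 to 0.16 for Itga3, -0.16 to 0.13 for Itga4, -0.078 to 0.16 for Itgav and -0.043 to 0.081 for Itgb4, and the interaction from -0.44 to 0.37 for Itga4, -0.21 to 0.15 for Itga6, -0.29 to 0.39 for Itgav and -0.34 to 0.10 for Itgb1. The cause was not tested. Depth limits Itgb8 most, with 8 to 78 counts a library.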
